A study of Mus musculus with 7 samples.

Results

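The subunit genes of the AMP-activated protein kinase (AMPK) were followed array by array in the left ventricle of old mice. The listed genes were Prkaa1 and Prkaa2, which encode the catalytic alpha subunits, Prkab1 and Prkab2 of the beta scaffold, and Prkag1 and Prkag2 of the gamma subunits that bind AMP. Every probe set that the platform table gives to 1 of these genes alone was taken. This found 7 probe sets of 3 genes among 22626, namely 3 of Prkag2, 2 of Prkag1 and 2 of Prkab1. Prkaa1, Prkaa2 and Prkab2, and likewise Prkag3 of the gamma subunit best known from skeletal muscle, had no probe set named for them alone in that table and were not analysed here. The genes were chosen by earlier differences between the knockout and wild-type arrays of this series, so the subunits' differences are given as a description, without a p-value.

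AMPK is a sensor of cellular energy. AMP and ADP bind to the gamma subunit when ATP is used faster than it is made, and the kinase then favours the burning of fatty acids and glucose over the building of lipid, glycogen and protein. The beta subunit holds the complex together and carries a region that binds glycogen. In humans, mutations of PRKAG2 cause a heart disease with stored glycogen, thickened ventricles and fast conduction between atria and ventricles.

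Each of 7 male mice, all 21 months old, gave left ventricle RNA to 1 MOE430A array. The labels name 3 mice without endothelial nitric oxide synthase (eNOS -/-; the enzyme encoded by Nos3), with the mouse numbers M4, M10 and M140, and 4 wild-type mice (eNOS +/+), with the numbers M23, M125, M128 and M158. The stated interest was the expression profile that goes with heart failure in old eNOS -/- males. The labels give no strain, no description of the disrupted part of Nos3 and no exercise state of a mouse, although exercise is a keyword, and nothing says whether mice were littermates.

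Values are intensities on a linear scale. The arrays had medians between 671 and 699, started at 86.5 to 92.3 and were capped at 44145 to 45552. No background appears to have been subtracted, so ratios understate the differences of dim probe sets. No AMPK subunit came near the upper limit. The number of arrays, 3 and 4, limits the precision. The experiment sheets give 4 hybridization days, coded 1 to 4 from the earliest. Each day had its own chip lot, so day and lot cannot be told apart. The sheets mark combined processing for M23 alone. Knockout M140 shared day 1 with wild-type M128, the only day with both groups. Knockout M4 and M10 were hybridized on day 3, wild-type M125 on day 2 and the pair M23 and M158, also wild type, on day 4. The ratio of the 5′ to the 3′ Gapdh control was 0.098 on M23 and 0.34 on M158, against 0.521 to 0.777 on the other 5 arrays.

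For Nos3, the arrays labelled knockout gave 1145, 1413 and 1135 at probe set 1422622_at, against 791, 1163, 872 and 1058 on the arrays labelled wild type. The targeted transcript was thus not lower on the arrays labelled knockout. Where this probe set lies relative to the disruption is not known here, so its level is no check of the labels, and every direction rests on them.

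Prkag2 lies on chromosome 5, as the 26th entry after Nos3 in the gene order of GRCm38.p6, and is therefore a chromosomal neighbour of the targeted gene. RefSeq lists 3 starts of Prkag2 transcripts in that build. The 3 Prkag2 probe sets were all designed from the same source sequence, and nothing in the files says which start a measured transcript used. The windows of 250 bases before to 50 after each start are shown because they differ in kind. They lie on the minus strand, at chr5:25100593-25100892, chr5:24995704-24996003 and chr5:24908460-24908759 in the order printed, 5′ to 3′. Capitals mark GC boxes (GGGCGG) and the extended half-site of the estrogen-related receptors (TNAAGGTCA), on either strand.
Prkag2 upstream start: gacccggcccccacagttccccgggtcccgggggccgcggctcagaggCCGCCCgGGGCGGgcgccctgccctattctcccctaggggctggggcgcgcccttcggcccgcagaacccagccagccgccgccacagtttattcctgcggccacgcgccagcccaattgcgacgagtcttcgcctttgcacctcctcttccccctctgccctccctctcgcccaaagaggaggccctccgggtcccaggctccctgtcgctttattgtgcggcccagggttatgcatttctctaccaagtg
Prkag2 middle start: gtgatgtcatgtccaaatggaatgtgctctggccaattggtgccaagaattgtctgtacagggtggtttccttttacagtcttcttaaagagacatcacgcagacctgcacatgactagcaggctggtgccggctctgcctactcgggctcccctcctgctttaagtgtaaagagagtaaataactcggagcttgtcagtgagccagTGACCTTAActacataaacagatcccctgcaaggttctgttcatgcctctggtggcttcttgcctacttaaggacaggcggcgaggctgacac
Prkag2 downstream start: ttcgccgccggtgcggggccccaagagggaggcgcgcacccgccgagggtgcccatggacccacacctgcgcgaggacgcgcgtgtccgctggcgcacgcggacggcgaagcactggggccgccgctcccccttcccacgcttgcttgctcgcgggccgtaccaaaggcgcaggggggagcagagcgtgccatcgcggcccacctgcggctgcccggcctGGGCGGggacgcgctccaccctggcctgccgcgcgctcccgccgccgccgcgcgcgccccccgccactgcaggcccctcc
The upstream and downstream windows held 25 and 45 CG dinucleotides and the middle window 6, against a median of 7 over 32544 RefSeq promoter windows of the same length. The middle window held 1 match to TNAAGGTCA, a sequence found in 1.28% of all windows, and no GC box. The upstream window held 2 GC boxes and the downstream window 1, and 35.9% of all windows hold at least 1. None of the 3 windows matched the MEF2 core, CTA and TAG parted by 4 bases (3.70% of all windows), the GATA core AGATAA (11.2%) or the TATA box TATAAA (13.6%). E-boxes (CANNTG), not marked in capitals, occurred 2, 3 and 2 times in the windows as printed, and 72.3% of all windows hold at least 1. The motifs were chosen with these windows in view, so the shares do not measure how unusual a match is. A match of letters is not a binding site.

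Prkag2 read higher on every knockout array than on any wild-type array at its 1 bright probe set, 1451140_s_at. This probe set read 1381, 1260 and 1262 on knockout M4, M10 and M140, against 815, 725, 453 and 802 on M23, M125, M128 and M158 of the wild type. The knockout arrays lay close together, whereas the wild-type arrays spanned 1.80-fold, with M128 lowest. The knockout mean was 1301 ± 69.6 (SD, n = 3) and the wild-type mean 699 ± 168 (SD, n = 4), a ratio of 1.86. On the scale of log2(intensity + 16) the difference was 0.92 ± 0.19 (SE). The lowest knockout array stood 1.55-fold above the highest wild-type array. In rank among all probe sets of its own array, Prkag2 stood at percentiles 72.2, 70.1 and 69.7 on the knockout arrays, against 56.8, 51.9, 33.7 and 56.2 on the wild-type arrays. Of 13836 tested probe sets, 99 (0.716%) had a larger positive difference. Since Prkag2 was chosen with this contrast known, nothing is read from this rank.

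The ending _s_at marks a probe set whose probes all match more than one transcript, which may belong to different genes, so that 1451140_s_at may cross-hybridize, although the platform table names Prkag2 alone for it. The other Prkag2 probe sets, 1423831_at and 1423832_at, do not carry that ending and were dim. Probe set 1423831_at read 304, 306 and 341 on the knockout arrays, against 319, 321, 266 and 298 on the wild-type arrays. Its groups overlapped, and its log2 difference was 0.07. Probe set 1423832_at read 144, 139 and 137 on the knockout arrays, against 137, 117, 107 and 106 on the wild-type arrays. Its groups did not overlap, but knockout M140 and wild-type M23 were nearly equal, and its log2 difference was 0.24. These probe sets stood at percentiles 16.8 to 25.5 and 0.354 to 4.08 of their arrays, and neither was above the 40th percentile on any array. The difference of Prkag2 therefore rests on the probe set of the kind that can cross-hybridize. It was above the 40th percentile on 6 of 7 arrays, all but wild-type M128.

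**Figure D1:**
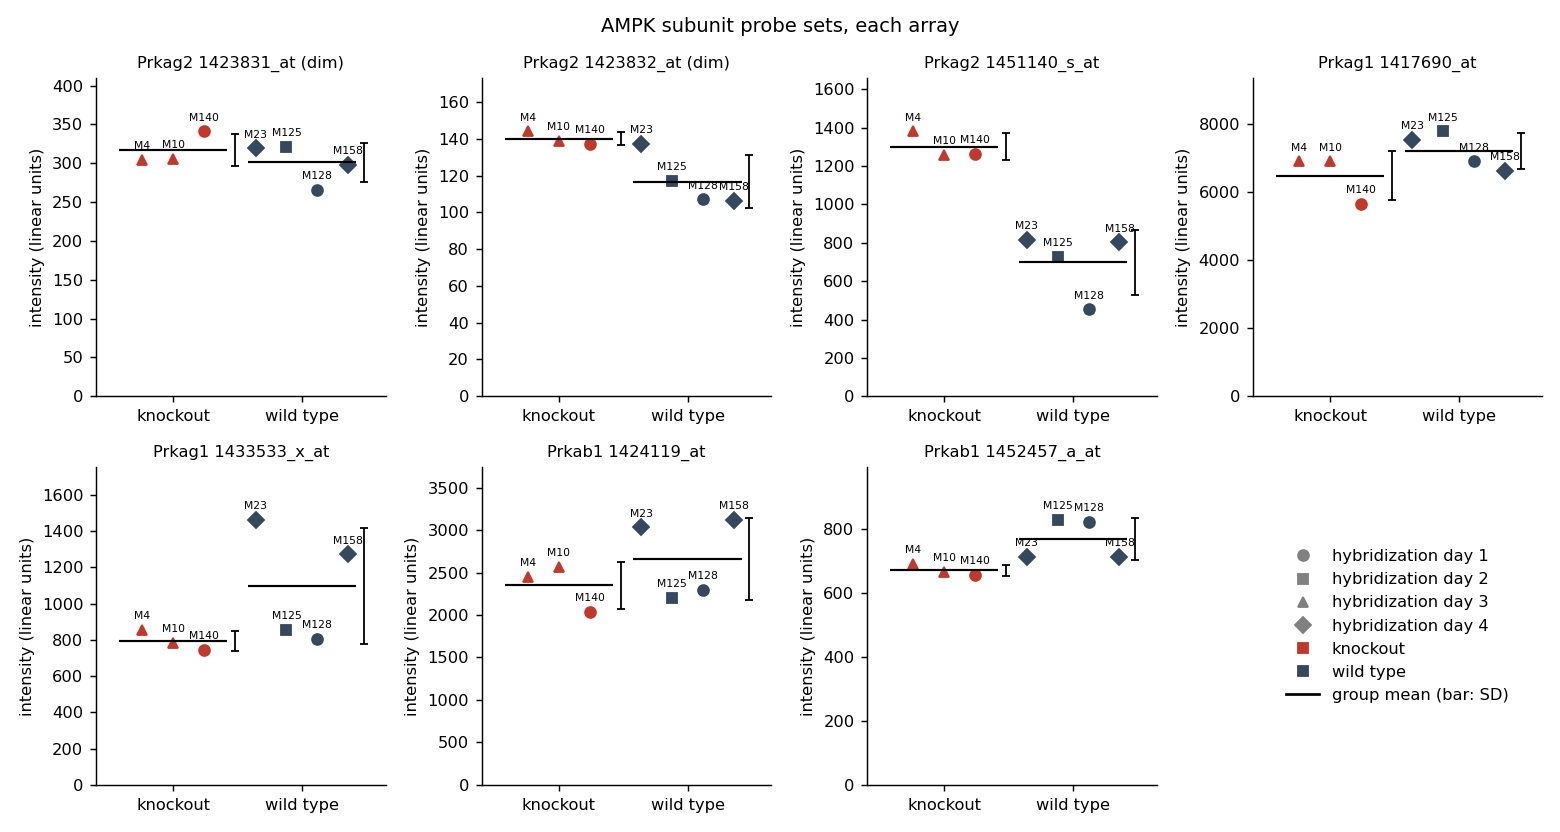
Deposited intensity (linear axis from 0) of the 7 AMPK subunit probe sets on the 3 knockout and 4 wild-type arrays, with 1 point per mouse, marker shape for hybridization day, a line at the group mean and a bar of 1 SD. Prkag2 1451140_s_at reads 1260 to 1381 in knockout and 453 to 815 in wild type, while Prkag1 1433533_x_at and Prkab1 1424119_at stand highest on wild-type M23 and M158 of day 4.

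Within day 1, the Prkag2 probe set 1451140_s_at read 1262 on knockout M140 and 453 on wild-type M128, a log2 difference of 1.45 between 2 mice. M128 was the lowest wild-type array, and without it the difference over the other 6 arrays was 0.73. Without wild-type M23 and M158, the arrays of day 4, the difference was 1.16. The dim probe sets 1423831_at and 1423832_at differed by 0.34 and 0.31 within day 1.

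Prkag1, whose gamma subunit is made in most tissues, did not share this direction. Its bright probe set 1417690_at read 6900, 6900 and 5642 on knockout M4, M10 and M140, against 7529, 7781, 6900 and 6623 on M23, M125, M128 and M158 of the wild type. The groups overlapped, with a knockout mean of 6481 ± 726 (SD, n = 3), a wild-type mean of 7208 ± 538 (SD, n = 4) and a log2 difference of -0.16 ± 0.13 (SE). Knockout M140 alone read below all wild-type arrays, and without it the difference was -0.06. The values of M4, M10 and M128 were equal to the last digit deposited. Such equal values on at least 2 arrays occurred in 49.9% of all probe sets and were deposited so, and the authors' processing steps are not known here.

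The other Prkag1 probe set, 1433533_x_at, has an ending for probe sets that share some probes with unrelated sequences and may also cross-hybridize. It read 854, 782 and 743 on knockout M4, M10 and M140, against 1460, 854, 807 and 1271 on M23, M125, M128 and M158 of the wild type. M23 and M158, the arrays of day 4 with the low Gapdh ratios, were high, and the other wild-type arrays read like the knockout arrays. The log2 difference was -0.42 ± 0.21 (SE) over all arrays, -0.07 without M23 and M158, and -0.12 within day 1. Day 4 held wild-type arrays only.

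Prkab1, the beta scaffold found in most tissues, was read by 2 probe sets at different levels. Probe set 1424119_at read 2444, 2566 and 2033 on knockout M4, M10 and M140, against 3031, 2199, 2294 and 3117 on M23, M125, M128 and M158 of the wild type. M23 and M158 were again the highest, the groups overlapped, and the knockout mean was 2348 ± 280 (SD, n = 3) beside a wild-type mean of 2660 ± 480 (SD, n = 4). The log2 difference of -0.17 ± 0.17 (SE) turned to 0.06 without M23 and M158 and was -0.17 within day 1.

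The dimmer Prkab1 probe set 1452457_a_at, whose ending stands for several transcripts of one gene, read 691, 666 and 658 on knockout M4, M10 and M140, against 714, 829, 822 and 713 on M23, M125, M128 and M158 of the wild type. All knockout arrays lay below all wild-type arrays, by a small margin between M4 and M158. The knockout mean was 672 ± 17.1 (SD, n = 3) and the wild-type mean 770 ± 64.9 (SD, n = 4), a ratio of 0.87 and a log2 difference of -0.19 ± 0.08 (SE). The difference was -0.31 within day 1 and -0.29 without M23 and M158. Prkab1 also lies on chromosome 5. On this probe set M23 and M158 were the lowest wild-type arrays, whereas on 1424119_at they were the highest.

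Of the 7 AMPK probe sets 5 passed the filter on dim values (above the 40th percentile of the array on at least 3 arrays). By limma, adjusted (Benjamini-Hochberg) across the 13836 probe sets tested, 0 of the 5 had an adjusted p under 0.05, as did 0% of all tested probe sets. The groups did not overlap for 2 of the 5 (9.30% of all tested): the knockout arrays were the higher ones for 1 (4.97%) and the lower ones for 1 (4.34%). Since the subunits were chosen with this contrast known, nothing is read from these counts. The median log2 difference of the 5 was -0.17, beside 0.00 over all tested probe sets.

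**Figure D2:**
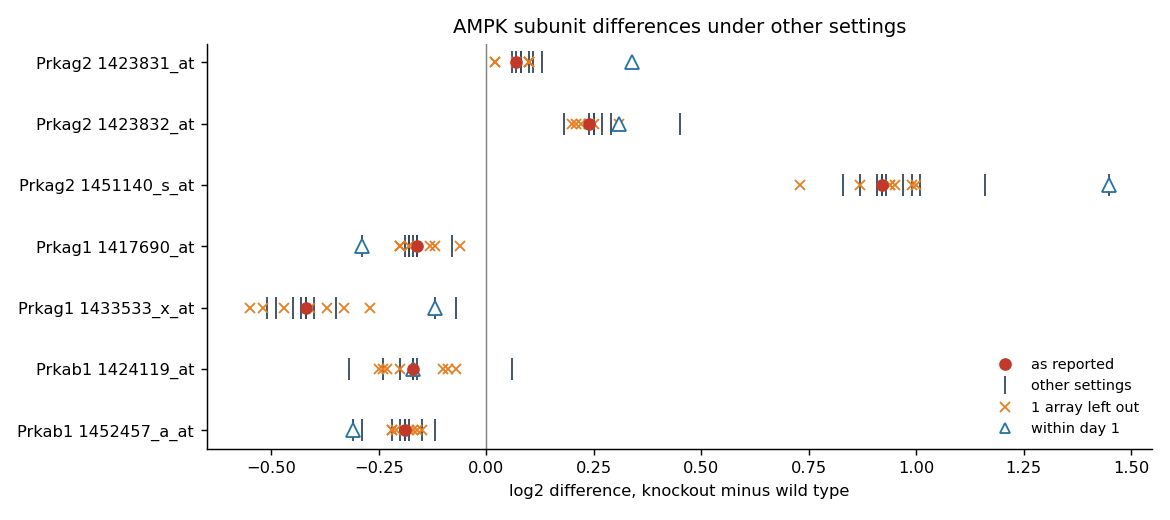
Log2 difference (knockout minus wild type, log2(intensity + 16) unless the setting changes it) of each AMPK subunit probe set as reported (circles), with 1 array left out (crosses), under other settings (ticks) and within day 1 (triangles). Prkag2 1451140_s_at runs from 0.73 to 1.45, and Prkab1 1424119_at from -0.32 to 0.06.

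The genes between Nos3 and Prkag2 did not read as Prkag2 did. The gene table lists 25 entries between them, of which 14 had probe sets and 11 a tested one. None of the 11 had an adjusted p under 0.05 by limma, a threshold that 0% of all tested genes passed. An unadjusted p under 0.05 by limma was met by 1 of the 11 (12.2% of all tested genes, in either direction). In 0 of the 11 did the groups separate, against 10.2% of all 8869 tested genes. With 11 genes, these counts do not set them apart from the other tested genes. The log2 differences ran from -0.58 to 0.21, with a median of -0.02, beside 0.92 for Prkag2 1451140_s_at. Asb10, a muscle protein of ubiquitin ligase complexes, read 1545, 1621 and 871 on the knockout arrays, against 1747, 2249, 1587 and 2336 on the wild-type arrays, a log2 difference of -0.58 ± 0.24 (adjusted p = 0.404 by limma) that was -0.30 without knockout M140. Smarcd3, a chromatin remodelling subunit of heart muscle, differed by 0.21 ± 0.18 (adjusted p = 0.727 by limma), by 0.02 without knockout M140 and by 0.71 within day 1. Rheb, the small GTPase that switches on mTORC1 and the gene next to Prkag2, read 12855 to 14218 on the knockout arrays, against 13423 to 14142 on the wild-type arrays, and differed by -0.02 ± 0.08. Fastk, Slc4a2, Abcf2, Cdk5 (1450674_at), Abcb8 and Tmub1 differed by -0.24, -0.10, -0.08, -0.13, -0.01 and -0.01, and Agap3 and Chpf2 by 0.00 and 0.03. Atg9b, Wdr86 and Crygn had dim probe sets only, which differed by -0.13, -0.16 and 0.09.

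Farther out, 7 of the 10 nearest measured genes before Nos3 and 5 of the 10 beyond Prkag2 were tested. Their differences ran from -0.49 to 0.09 and from -0.16 to 0.08. In 0 of them did the groups separate at the brightest probe set, against 10.2% of all tested genes. With so few genes, this count does not set the flanking genes apart. The groups did separate at another probe set of Tomm7 (1428214_at, -0.30). Kcnh2, a cardiac potassium channel gene just before Nos3, differed by -0.14 ± 0.17 (adjusted p = 0.820 by limma). Kmt2c, a histone methyltransferase gene beyond Prkag2, differed by -0.16 ± 0.16 (adjusted p = 0.774 by limma). Nos3 itself differed by 0.35 ± 0.15 (adjusted p = 0.420 by limma), and its groups overlapped. Whether DNA around the targeted gene differed between the mice was not tested.

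**Figure D3:**
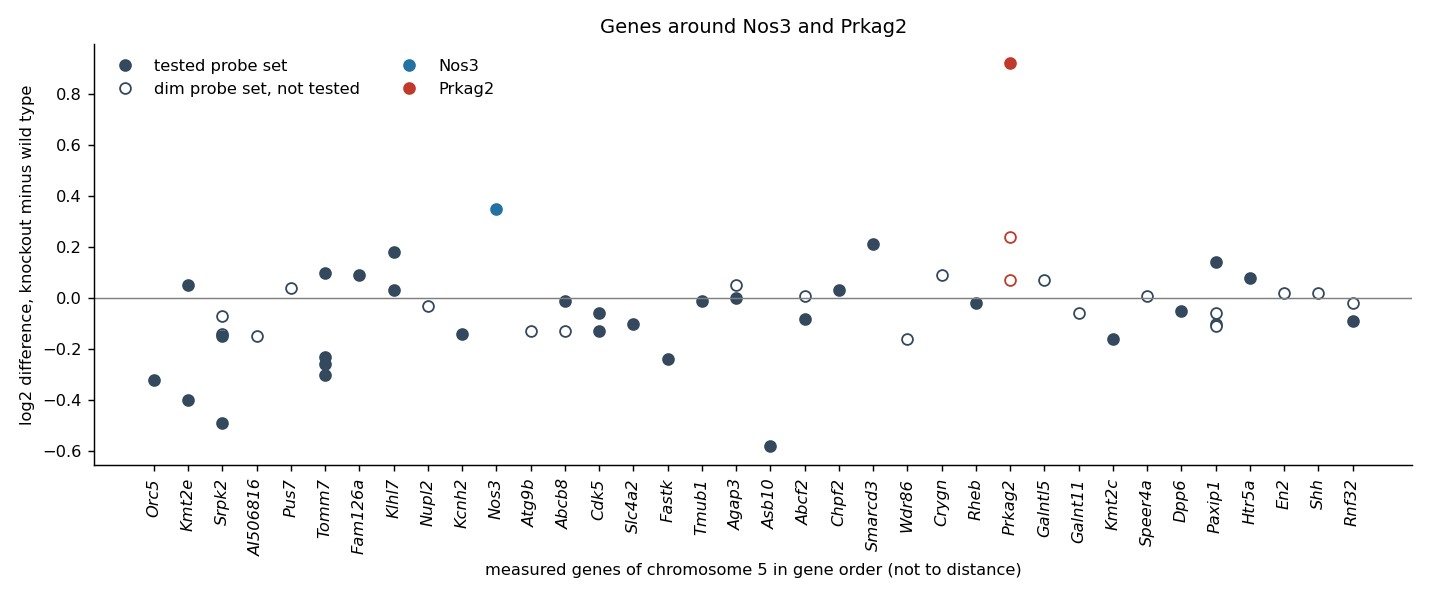
Log2 difference (knockout minus wild type) of every probe set of the measured genes around Nos3 and Prkag2, in gene order along chromosome 5 and not to distance, with filled points for tested and open points for dim probe sets. Prkag2 1451140_s_at stands at 0.92, while the tested genes between it and Nos3 lie between -0.58 and 0.21.

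Markers of heart cell types were read beside Prkag2. All 6 markers of ventricular muscle, the labelled tissue, stood at the upper limit of every array, so they were saturated and carry no comparison of the groups. The 4 macrophage markers (Cd68, Csf1r, Adgre1 and Cd163) summed to 15152 to 16628 on the knockout arrays, against 10918 to 13169 on the wild-type arrays, so that this sum separated the groups as Prkag2 did. Csf1r made up most of the sum on every array. Cd68, Csf1r and Cd163 each separated the groups, whereas Adgre1 overlapped (2254 to 2713 on the knockout arrays, against 2008 to 2453 on the wild-type arrays). The 5 endothelial markers summed to 9512 to 11242, against 8102 to 13052, with the lowest sum on wild-type M128, which was also lowest in Prkag2. The 4 atrial markers summed to 47537 to 71833 on the knockout arrays, against 74263 on wild-type M125 and 9349 to 24404 on the other 3 wild-type arrays. Nppa, the natriuretic peptide gene that makes up most of this sum on most arrays, separated the groups as Prkag2 did. It read 44868, 37741 and 45540 on the knockout arrays, at the upper limit on M4 and M140, against 6717, 32820, 12669 and 7993 on the wild-type arrays. The other atrial markers, Myl7, Sln and Myl4, overlapped and were highest on knockout M10 and wild-type M125. The 4 fibroblast markers (14694 to 24423, against 12536 to 23751) overlapped. So did the 6 skeletal muscle markers, of which 3 passed the filter (2490 to 2694, against 2552 to 2703). The 3 smooth muscle markers, of which 2 passed, overlapped too (2400 to 3094, against 2272 to 2804). The same held for 2 measured adipocyte markers of 4, of which 1 passed (33879 to 37623, against 35480 to 42208). Nearly all of the adipocyte sum was Fabp4 on every array (33460 to 41822), and Adipoq was dim (191 to 419). The part of any of these in the Prkag2 difference was not tested. In whole tissue, fewer cells of a type and less RNA per cell cannot be told apart.

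Genes that act on AMPK or answer to it were read from 6 lists of 82 genes, of which 59 had a tested probe set. By limma 0 of the 59 had an adjusted p under 0.05 (0% of all tested genes), while an unadjusted p under 0.05 was met by 3 that read higher and 6 that read lower (6.77% and 5.40% of all tested genes). The knockout arrays lay wholly above the wild-type arrays for 4 of the 59 and wholly below for 4, against 5.29% and 4.89% of all tested genes. Over the 59 the median log2 difference was -0.04, beside 0.00 over all 8869 genes.

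Upstream kinases and regulators had a median log2 difference of 0.03 over 13 tested genes of 18, with a range of -0.09 to 0.32. Adipor2, a receptor of the fat hormone adiponectin that signals to AMPK, read 6854, 6432 and 6674 on the knockout arrays, against 4646, 5417, 6105 and 5228 on the wild-type arrays. All knockout arrays were higher, and the difference was 0.32 ± 0.13 (adjusted p = 0.392 by limma), but 0.13 within day 1. The Adipor2 probe set, 1434329_s_at, is of the kind that can cross-hybridize. Ppm1a, a phosphatase that can remove the activating phosphate, differed by 0.30 ± 0.13 (adjusted p = 0.435) and by 0.60 within day 1. Another 3 Ppm1a probe sets gave 0.01, -0.02 and 0.17. Camkk2, the calcium-dependent kinase that activates AMPK, read 1376, 1424 and 1467 on the knockout arrays, against 1323, 950, 1092 and 1365 on the wild-type arrays, and differed by 0.28 ± 0.13 (adjusted p = 0.479), by 0.18 without wild-type M125. M4 and wild-type M158 were almost level for Camkk2, and its other 2 probe sets were dim and differed by -0.10 and 0.03. Stk11, the gene of the main activating kinase LKB1, differed by 0.27 ± 0.17 with overlapping groups, and Cab39, a partner of LKB1, by 0.27 ± 0.14 with all knockout arrays higher (adjusted p = 0.581 and 0.513 by limma).

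Substrates of AMPK had a median of -0.03 over 18 tested genes of 22. Ppargc1a, the coactivator of mitochondrial genes that AMPK phosphorylates, read 738, 833 and 1149 on the knockout arrays, against 4126, 4237, 3351 and 3153 on the wild-type arrays. That difference of -2.03 ± 0.18 (adjusted p = 0.0531 by limma, probe set 1456395_at) was by far the widest of the 59 genes. Within day 1 it was -1.53. The other 4 Ppargc1a probe sets differed by -0.50 to -0.81. The groups overlapped at 1434099_at, 1434100_x_at and 1437751_at, and all knockout arrays were lower at 1460336_at. Ulk1, which starts autophagy, differed by -0.35 ± 0.15 (adjusted p = 0.420) with overlapping groups, by -0.20 without knockout M10 and wild-type M125, and its other probe set 1416504_at by 0.01. Nos3, also a substrate, is given above. Acacb, the acetyl-CoA carboxylase of muscle through which AMPK releases fatty acid entry into mitochondria, read 5575, 6733 and 4625 on the knockout arrays, against 6295, 8271, 5634 and 7659 on the wild-type arrays, a difference of -0.30 ± 0.19 (adjusted p = 0.587 by limma). Gys1, the muscle glycogen synthase, differed by 0.41 ± 0.23 and overlapped (adjusted p = 0.547 by limma).

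Target genes in muscle had a median of -0.41 over 10 tested genes of 12, from -2.03 to -0.05, and all knockout arrays lay below all wild-type arrays for 4 of the 10 (4.89% of all tested genes). These were, at their brightest tested probe sets, Ppargc1a, Mlycd, Cd36 and Esrra. Mlycd, which breaks down malonyl-CoA, differed by -0.68 ± 0.16 (adjusted p = 0.224), and Cd36, a fatty acid transporter, by -0.24 ± 0.08 (adjusted p = 0.308). Of the other 2 Cd36 probe sets, 1 differed by -0.12 with overlapping groups and 1 by -0.43 with all knockout arrays lower. Esrra, the estrogen-related receptor alpha, read 2103, 2448 and 2274 on the knockout arrays, against 2450, 2567, 2925 and 2450 on the wild-type arrays, where M10 and M23 were nearly equal, and differed by -0.19 ± 0.12 (adjusted p = 0.605 by limma). Slc2a4, the insulin-responsive glucose transporter, read 3895, 5278 and 4428 on the knockout arrays, against 4401, 7454, 7594 and 6597 on the wild-type arrays. It differed by -0.50 ± 0.22 with overlapping groups (adjusted p = 0.422), and its other tested probe set by -0.18 ± 0.18. The list was chosen with earlier results of these arrays known, and its direction is not independent evidence.

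The mTORC1 branch, the growth pathway that AMPK restrains, had a median of 0.12 over 8 tested genes of 11. Mtor, its kinase, read 4615, 3910 and 3719 on the knockout arrays, against 3433, 2641, 2391 and 3288 on the wild-type arrays. All knockout arrays were higher at this probe set, by 0.48 ± 0.17 (adjusted p = 0.341 by limma), while the other Mtor probe set, 1436267_a_at, differed by -0.03 ± 0.11. Tsc2, an inhibitor of mTORC1, differed by 0.45 ± 0.29 and Eef2k, the kinase that slows translation elongation, by 0.12 ± 0.09, both with overlapping groups (adjusted p = 0.610 and 0.671 by limma). Without wild-type M23 the Tsc2 difference was 0.25, and without knockout M10 that of Eef2k was 0.07.

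The AMPK-related kinases had 6 tested genes of 13, from -0.11 to 0.15. In 0 of them did the groups separate at the brightest tested probe set, against 10.2% of all tested genes. With 6 genes, this count does not set them apart. Snrk differed by 0.15 ± 0.18 (0.04 without wild-type M128), Mark1 by -0.11 ± 0.11 (0.00 within day 1) and Mark4 by -0.09 ± 0.10. The probe sets of Mark1 (1419834_x_at) and Mark4 (1453569_s_at) are of the kind that can cross-hybridize. The other Mark1 probe sets went the other way, by 0.04, 0.16, 0.15 and 0.12, with all knockout arrays higher at the dim 1425510_at (0.16). The other Mark4 probe sets were dim and differed by 0.15 and -0.04. Genes of AMP turnover had a median of -0.04 over 7 tested genes of 10. In 0 of these did the groups separate (10.2% of all tested genes), and with 7 genes this count does not set them apart either. Ak4, a mitochondrial adenylate kinase, read 1122, 896 and 1243 on the knockout arrays, against 2332, 1146, 1451 and 1854 on the wild-type arrays, a difference of -0.60 ± 0.24 (adjusted p = 0.389 by limma). It was -0.26 without wild-type M23 and M158, the arrays of day 4, and -0.22 within day 1. Its probe set 1450387_s_at is of the kind that can cross-hybridize, and its other 3 probe sets differed by -0.09, -0.07 and 0.07. Adk, adenosine kinase, which makes AMP from adenosine, differed by -0.27 ± 0.13 and Nt5e, which makes adenosine from AMP, by 0.11 ± 0.12 (adjusted p = 0.461 and 0.788 by limma). The Adk difference was -0.15 without knockout M4, and that of Nt5e -0.13 within day 1. The Adk probe set, 1438292_x_at, is also of the kind that can cross-hybridize. The other Adk probe sets differed by -0.12, -0.08 and -0.06, with overlapping groups.

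**Figure D4:**
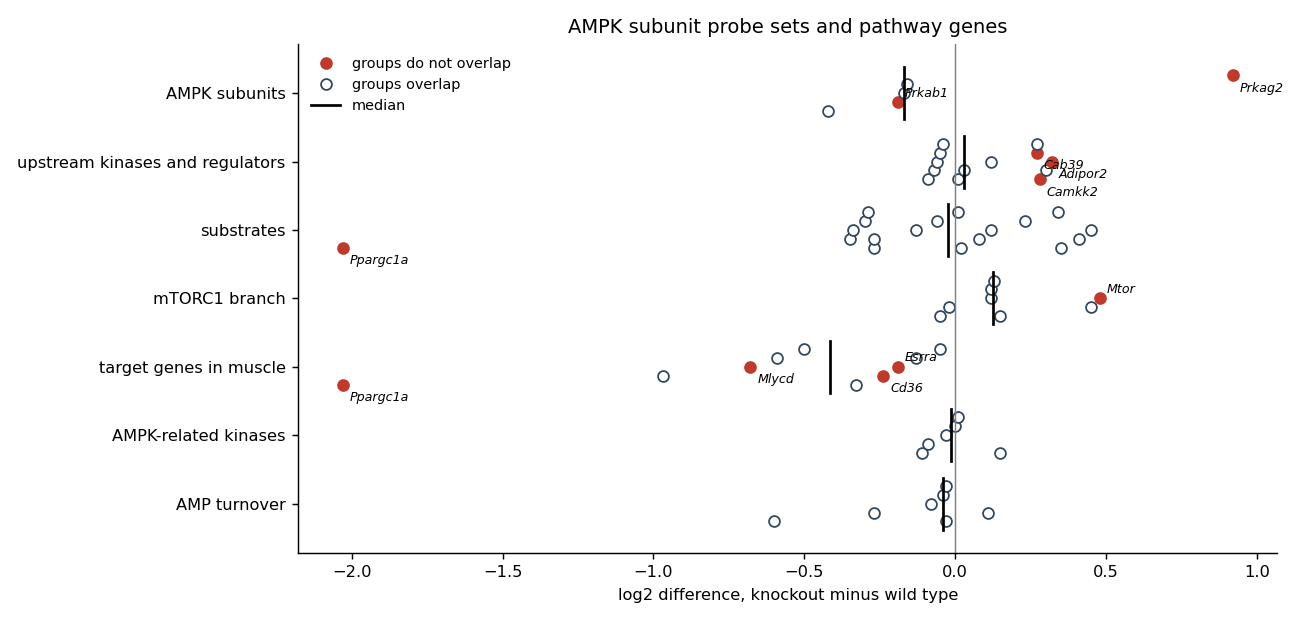
Log2 difference (knockout minus wild type) of the 5 tested AMPK subunit probe sets and of the tested genes of 6 pathway lists, 1 point per probe set or gene, filled where the 3 knockout and 4 wild-type arrays do not overlap, with a line at each median. Prkag2 stands at 0.92, Ppargc1a at -2.03 and the median of the muscle target genes at -0.41.

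Over the 7 arrays, the genes whose log2 values followed Prkag2 1451140_s_at most closely among 8868 were Eprs, an aminoacyl-tRNA synthetase (Pearson r = 0.985), Flt4, a receptor of vascular endothelial growth factors (r = 0.979), and Ank3, a membrane adaptor (r = 0.976). Eprs read 3629, 3052 and 3255 on the knockout arrays, against 2594, 2150, 1659 and 2439 on the wild-type arrays, with wild-type M128 lowest as for Prkag2, while the other Eprs probe set differed by -0.34 ± 0.41. For all 3 genes the groups did not overlap, so the likeness includes the group difference and M128. Those closest to Prkag1 1417690_at were Tmem42 (r = 0.948), Krt77 (r = 0.947) and Rab40c (r = 0.946), and for all 3 the groups overlapped. These are the highest of 8868 values over 7 arrays that share their processing, and they are given as a description.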

How the data were processed

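Intensities were used as deposited: per the file headers the arrays were MOE430A, and for the authors' software, background correction and scaling the sources used here give nothing. Control probe sets (64) were not used. The platform table names 1 gene for 20380 probe sets, several for 691 (not named here) and none for 1555. Gene order came from GRCm38.p6. Values were taken as log2(intensity + 16), which understates differences of dim probe sets. The test was limma 3.58.1 (lmFit, eBayes with trend, two-sided, R 4.3.3) on 13836 probe sets above the 40th percentile of their own array on at least 3 arrays, with Benjamini-Hochberg adjustment over all of them. A gene was represented by its brightest tested probe set (8869 genes). The fit was tested on simulated data. The labels name no pairing of mice, and none was used. P-values rest on the spread among arrays of a group, which joins mouse, hybridization day and chip lot.

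The subunits, gene lists and alternatives were chosen with earlier results of these data known. The genes named are every subunit probe set, Nos3, each measured gene between Nos3 and Prkag2, the 3 genes of smallest p of each list and the 3 genes most like Prkag2 and Prkag1. Stk11, Cab39, Acacb, Gys1, Esrra, Slc2a4, Kcnh2 and Kmt2c were named after their values were seen. The alternatives were offsets of 1 and 64, quantile normalization, normexp (offset 50), array weights, no trend in eBayes, a 60th percentile filter or none, hybridization day as a fixed or random block or within day 1, the mean of a gene's probe sets, a threshold of 0.10, and leaving out arrays. The motifs were chosen with the Prkag2 windows in view.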

Additional observations from a re-analysis of the deposited data

How the results depend on the processing

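Prkag2 1451140_s_at ran from 0.73 to 1.45 under 20 alternatives. Its groups did not overlap, so leaving out or weighting arrays, another offset or day 1 alone could not turn its direction. The filters and eBayes without trend leave any difference unchanged (0.92 here), and the fixed block repeats the 1.45 of day 1. The alternatives thus show the size of this difference and are no check of its direction. Prkag1 1417690_at, whose groups overlapped, kept its sign under 20 (-0.29 to -0.06). Prkag1 1433533_x_at ran from -0.55 to -0.07 and Prkab1 1452457_a_at from -0.31 to -0.12 under 19 each, with the same sign throughout. For 1452457_a_at, whose groups did not overlap, the kept sign is likewise no check. Prkab1 1424119_at kept its sign under 19 of 20 and read 0.06 without wild-type M23 and M158. The dim Prkag2 probe sets ran from 0.02 to 0.34 and from 0.18 to 0.45 under 15 each.

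The count of all probe sets past an adjusted p of 0.05, 0 as reported, was 1 with the 60th percentile filter, 619 with array weights, 1 with hybridization day as a fixed block, 2 without M10 and M125, 1 without M23 and M158, 21 at a threshold of 0.10, and 0 to 74 with 1 array left out (74 without knockout M10, 27 without knockout M140). Of the AMPK probe sets, which were chosen on this contrast, 0 passed as reported and 1 with array weights, Prkag2 1451140_s_at; nothing is read from these counts. Of the 59 pathway genes, 3 passed with array weights (Ppargc1a, Mlycd and Cd36). Array weights passed 619 of all 13836 tested probe sets, so the count of 3 does not set the pathway genes apart. Ppargc1a alone (a count of 1) passed with the 60th percentile filter and with the mean of a gene's probe sets. With 1 array left out the count was 0 to 1, Ppargc1a without knockout M10 or M140. Leaving out any other array raised the adjusted p of Ppargc1a by limma from 0.0531. It then lay between 0.124 (without wild-type M125) and 0.259 (without knockout M4). The cause of these changes was not tested. None of the 11 genes between Nos3 and Prkag2 passed under any alternative. Most alternatives passed few probe sets or none, so this does not set the 11 genes apart. The fixed block takes its difference from the 2 arrays of day 1.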
